A study of Mus musculus with 10 samples.

Results

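Oxidative phosphorylation was examined through 111 genes of the 13837 in the table, in kidneys of 3-month-old mice. The genes were chosen by symbol. They are all genes whose symbol begins with mt-, Ndufa, Ndufb, Ndufc, Ndufs, Ndufv, Uqcr, Cox4i, Cox5, Cox6, Cox7, Cox8 or Atp5, together with Sdha, Sdhb, Sdhc, Sdhd and Cycs, without the Ndufaf assembly factors and symbols that end in -ps. The rule uses symbols and no measured value, although it was set with earlier results of these data known. The mitochondrial genome encodes 28 of them, which are 13 mRNAs, 2 rRNAs and 13 tRNAs. The nuclear genome encodes the other 83. By symbol, these are 39 genes of complex I, 4 of complex II, 8 of complex III, 13 of complex IV, 17 of complex V, cytochrome c (Cycs) and Cox7c-ps1, a processed pseudogene that the letter of the rule keeps. Ndufa4 was counted with complex I by its symbol, although its protein is found in complex IV.

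Kidneys of 5 +/+ and 5 KI/+ mice were compared, and each library came from whole kidney tissue of 1 mouse. The KI/+ mice carry 1 copy of Rragc with the S74N change, made with CRISPR in the endogenous gene, and 1 normal copy in every cell, whereas +/+ mice carry 2 normal copies. RagC is a GTPase that relays nutrient levels to the kinase complex mTORC1, and the S74N protein behaves as if loaded with GDP, which is the active state of RagC. The strain is C57BL/6, no treatment is given in the labels, and neither the sex of these mice nor shared litters are stated.

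Oxidative phosphorylation takes place in the inner mitochondrial membrane. Complexes I (NADH dehydrogenase) and II (succinate dehydrogenase) pass electrons to ubiquinone, complex III passes them to cytochrome c, and complex IV (cytochrome c oxidase) reduces oxygen. Complexes I, III and IV pump protons, and complex V (ATP synthase) uses the proton gradient to make ATP. All subunits of complex II are nuclear encoded, whereas the other complexes combine subunits from both genomes. Kidney tubules, above all the proximal and distal convoluted tubules and the thick ascending limb, are rich in mitochondria because salt reabsorption consumes ATP.

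Values are normalized counts, that is reads on a gene divided by a size factor of the library. The reads fall near the 3′ end of polyadenylated transcripts, so a count does not grow with gene length. Libraries held 6501552 to 7996087 reads on genes. Rragc itself had 244 to 347 normalized counts in +/+ and 189 to 248 in KI/+ mice, and such counts cannot show which allele they came from. Library codes fell into an earlier run (codes ending in 38 to 40, with +/+ replicates 1 and 2 and KI/+ replicate 1) and a later run (codes ending in 53 to 66, with 3 +/+ and 4 KI/+ mice). What the runs stand for is not stated, so the values within the later run are given wherever they change a call for a gene or list. The earlier run holds too few mice for values of its own.

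In KI/+ kidneys, 3 of the 109 members that could be tested were lower and none was higher (2.75%, limma, adjusted p threshold 0.05). They were Cox7a1 of complex IV, Atp5g3 of complex V and Ndufb5 of complex I, all of them nuclear encoded. Over all 13197 genes tested, 3.69% passed the same threshold and 2.02% passed it in the lower direction, so the share of called members was close to that of the transcriptome. An unadjusted limma p under 0.05 was found for 17.4% of the tested members and 15.4% of all genes tested. Counts of unadjusted p given below are to be set against that 15.4%. Values of the 2 genotypes did not overlap for 6 members (5.50%), all lower in KI/+, against 2.71% of all genes in that direction and 2.29% in the other. These were Atp5o, Atp5a1 and Cox6c besides the 3 called genes. The 2 members under the filter on low values were the tRNA genes mt-Tg and mt-Ts1.

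**Figure D1:**
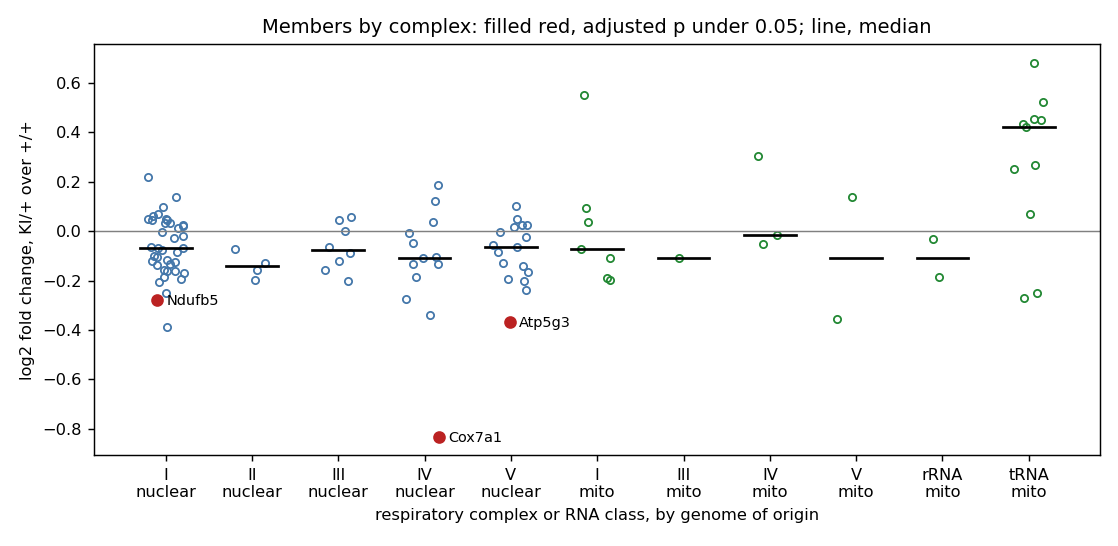
Each point is a tested member, placed by respiratory complex or RNA class and by genome of origin, with the log2 fold change of KI/+ over +/+ on the y axis. Red filled points passed the threshold (Cox7a1, Atp5g3 and Ndufb5), black lines are medians, and Cycs and Cox7c-ps1 are not drawn. Most nuclear-encoded members lie slightly below 0, while 9 of the 11 tested tRNAs lie above 0.

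Cox7a1 showed the largest fall. It encodes the muscle-type isoform of subunit VIIa of cytochrome c oxidase, which is typical of heart and skeletal muscle and a minor form elsewhere. Its normalized counts were 231, 217, 178, 178 and 167 in the +/+ mice (replicates 1 to 5) and 165, 103, 82.0, 86.0 and 121 in the KI/+ mice. The lowest +/+ value lay just above the highest KI/+ value, that of replicate 1. Mean levels were 194 ± 28.1 against 111 ± 33.7 normalized counts (log2 fold change -0.83, SE 0.17, limma adjusted p = 0.00677). Within each run of codes the KI/+ mice were also below every +/+ mouse, and the later run alone gave -0.84 (limma adjusted p = 0.0116). The ubiquitous isoform Cox7a2 was much more abundant (7729 ± 464 against 7174 ± 693 normalized counts) and did not pass the test (log2 fold change -0.11, SE 0.083, limma adjusted p = 0.598). Cox7a1 therefore made up 2.44% ± 0.208 (SD, n = 5) of the reads of both isoforms in +/+ and 1.55% ± 0.514 (SD, n = 5) in KI/+ kidneys, with a single KI/+ mouse (2.32%) inside the +/+ range of 2.27 to 2.68%.

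Atp5g3 is 1 of the genes for subunit c, whose copies form the rotating ring of ATP synthase. It had 6688, 6724, 7067, 8509 and 7940.5 normalized counts in +/+ and 5289, 6122, 5769, 6174 and 5217 in KI/+ mice. All KI/+ values were below all +/+ values, and the separation held in both runs of codes. Means were 7386 ± 805 against 5714 ± 449 normalized counts (log2 fold change -0.37, SE 0.089, limma adjusted p = 0.0266). Atp5g1 and Atp5g2 encode the same mature protein behind other import sequences. Atp5g1 had 3299 ± 339 against 2957 ± 449.6 normalized counts (log2 fold change -0.16, SE 0.10, limma adjusted p = 0.485), and Atp5g2 was scarce at 43.4 ± 7.68 against 43.9 ± 17.0 normalized counts (log2 fold change -0.083, SE 0.27, limma adjusted p = 0.928). Neither passed the test. Summed over the 3 genes, transcripts for subunit c came to 10728 ± 629 in +/+ and 8715 ± 368 normalized counts in KI/+ kidneys. The share of Atp5g3 in this sum overlapped widely between genotypes, at 63.5 to 72.9% and 58.3 to 69.9%. The call for Atp5g3 was lost when +/+ replicate 4 or 5 or KI/+ replicate 1 or 5 was left out (limma adjusted p = 0.0575 to 0.0973), with log2 fold changes of -0.31 to -0.34.

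Ndufb5 encodes an accessory subunit in the membrane arm of complex I. Its values were 2067, 2122, 1933, 2223 and 2205 in +/+ and 1649, 1727, 1835, 1806 and 1684 in KI/+ mice. The groups did not overlap, and the range within each genotype was narrow. Means were 2110.0 ± 117 against 1740.3 ± 78.7 normalized counts (log2 fold change -0.28, SE 0.073, limma adjusted p = 0.0418). This call was near the threshold, since it held in only 2 of the 10 fits that left out 1 mouse (limma adjusted p = 0.0304 to 0.13 over these fits). The log2 fold change stayed between -0.26 and -0.31 in these fits, and the later run of codes gave -0.26 (limma adjusted p = 0.126).

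**Figure D2:**
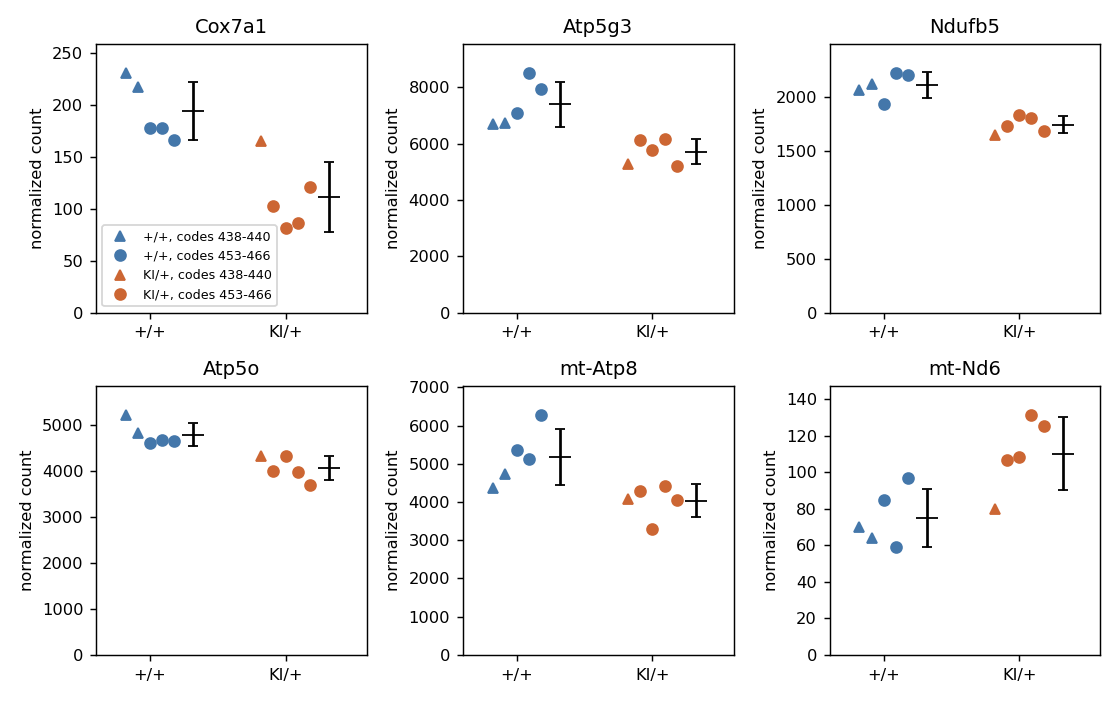
Normalized counts (y axis, from 0) of 6 members in each +/+ (blue) and KI/+ (orange) mouse, with triangles for the earlier and circles for the later run of library codes, and with the mean and SD in black. The genotypes do not overlap for Cox7a1, Atp5g3, Ndufb5 and Atp5o, and they overlap for mt-Atp8 and mt-Nd6.

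The promoters of the 3 called genes are shown to compare their sequences. Each window runs from 250 bases before to 50 bases after the RefSeq start on GRCm38.p6, an older build than the GRCm39 used for the counts, and is read 5′ to 3′ on the strand of the gene. Capitals mark a match to the ERR motif TCAAGGTCA on either strand, the site bound by estrogen-related receptors.
Atp5g3, chr2:73911277-73911576, minus strand: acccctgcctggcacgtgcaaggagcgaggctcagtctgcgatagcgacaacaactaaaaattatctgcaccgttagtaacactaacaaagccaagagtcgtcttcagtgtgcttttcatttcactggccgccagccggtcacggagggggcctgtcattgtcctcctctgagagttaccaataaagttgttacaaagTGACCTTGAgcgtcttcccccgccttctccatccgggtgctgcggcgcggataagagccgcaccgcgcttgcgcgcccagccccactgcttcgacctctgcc
Cox7a1, chr7:30183921-30184220, plus strand: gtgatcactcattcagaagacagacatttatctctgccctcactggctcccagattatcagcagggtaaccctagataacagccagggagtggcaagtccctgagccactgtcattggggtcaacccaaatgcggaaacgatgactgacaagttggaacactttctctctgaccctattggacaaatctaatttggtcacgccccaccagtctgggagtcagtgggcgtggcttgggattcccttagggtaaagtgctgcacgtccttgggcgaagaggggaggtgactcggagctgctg
Ndufb5, chr3:32736813-32737112, plus strand: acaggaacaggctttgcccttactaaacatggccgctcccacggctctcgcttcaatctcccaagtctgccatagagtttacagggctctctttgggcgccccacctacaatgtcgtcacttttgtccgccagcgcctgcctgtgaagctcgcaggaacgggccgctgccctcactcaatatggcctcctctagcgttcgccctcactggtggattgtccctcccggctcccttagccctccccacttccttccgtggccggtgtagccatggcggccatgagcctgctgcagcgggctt
Among these, only the Atp5g3 window held 1 of the 5 motifs searched, and it lay on the reverse strand.

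For the nuclear-encoded members as a whole, 69 of 83 genes had a RefSeq promoter, with 74 start windows. Motifs were searched on both strands and with no mismatch. The NRF1 motif GCGCATGCG was found in 12.2% of the member windows against 1.75% of all 32851 windows. It lay in Cycs, Cox6a1, Uqcrc1, Uqcr11, Ndufa8, Ndufa11, Atp5g2, Atp5k and Atp5l, whose median log2 fold change was 0.044. The YY1 motif AAGATGGCG was found in 9.46% against 1.40%, and the ETS motif CCGGAAGT, bound by GABPA, in 6.76% against 3.89%. The ERR motif occurred in 2.70% against 0.423%, in Atp5g3 and Sdhd alone. The CLEAR motif TCACGTGA, bound by TFEB and TFE3, occurred in 2.70% against 0.974%, both windows belonging to Ndufa7 (log2 fold change 0.047, SE 0.074, limma adjusted p = 0.835). Both transcription factors are restrained by mTORC1. Genes with NRF1 motifs thus did not include any of the 3 called members.

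Among the 39 complex I genes of the nucleus, Ndufb5 was the single gene called, and 25 lay below 0. Their median log2 fold change was -0.070, and the middle part of the distribution, between the quartiles, ran from -0.15 to 0.033. The 95% confidence interval stayed within a 1.5-fold change in either direction for 38 of them. The most abundant, Ndufa5, a subunit of the matrix arm, had 5009 ± 407 against 5196 ± 588 normalized counts (log2 fold change 0.049, SE 0.089, limma adjusted p = 0.856). The core subunits that carry the electron path gave values on both sides of 0. Ndufv1, which binds NADH, was at 0.22 on the log2 scale (limma adjusted p = 0.381), and Ndufs8, an iron-sulphur subunit, at -0.19 (limma adjusted p = 0.239). Ndufv1 was singled out after its values were seen. It had 3415, 3049, 2571, 2354 and 2539 in +/+ and 4126, 2884, 3316, 2881 and 3025 in KI/+ mice, so that the mice of the earlier run were the highest of each genotype. It passed the limma threshold with a term for the run (log2 fold change 0.30, adjusted p = 0.014). Ndufa4 (log2 fold change -0.078, SE 0.14, limma adjusted p = 0.852) and its paralogue Ndufa4l2, a gene induced by hypoxia that was scarce here at a mean of 10.98 in +/+ and 8.48 in KI/+ mice, did not pass the test.

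All 4 genes of complex II had log2 fold changes below 0 (median -0.14), and none passed the test in limma, edgeR or DESeq2, nor had an unadjusted p under 0.05. Sdhb, the iron-sulphur subunit, had 5178 ± 172 against 4664 ± 578 normalized counts (log2 fold change -0.16, SE 0.086, limma adjusted p = 0.409). Sdha, the flavoprotein that oxidizes succinate, had 3675 ± 191 against 3499.8 ± 209 normalized counts (log2 fold change -0.071, SE 0.074, limma adjusted p = 0.728). The membrane anchors were less abundant, with 1317 ± 194 against 1213 ± 231 normalized counts for Sdhc (log2 fold change -0.13, SE 0.13, limma adjusted p = 0.709). Sdhd had 5.25 to 98.5 normalized counts. The KI/+ mice held both its lowest and its highest value, and its fitted change of -0.20 (log2, limma adjusted p = 0.907) has the opposite sign to its difference in mean level (37.7 ± 17.1 against 42.2 ± 35.3 normalized counts).

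Complex III had 8 nuclear-encoded genes, of which none passed the test in limma, edgeR or DESeq2 and 1 had an unadjusted p under 0.05. This was Uqcrc2, a core subunit, with 2811, 3048, 3090.2, 3239 and 3127 in +/+ and 2390.3, 2778, 2635, 2893 and 2619 in KI/+ mice. The groups overlapped by the lowest +/+ mouse (log2 fold change -0.20, SE 0.076, limma adjusted p = 0.181), and a term for the run of codes brought the limma adjusted p to 0.040. Uqcrh, the hinge protein and the most abundant of the 8, had 5373 ± 265 against 5069 ± 477 normalized counts (log2 fold change -0.088, SE 0.082, limma adjusted p = 0.688). The median over the complex was -0.075.

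In complex IV, 10 of 13 nuclear-encoded genes lay below 0, with a median of -0.11, and Cox7a1 alone passed the test. Cox6c, its most abundant gene, had 12103, 11551, 11061, 10992 and 11433 in +/+ and 10949, 10121, 10824, 9961 and 10246 in KI/+ mice. All KI/+ values were lower, yet by so little that the test was not passed (log2 fold change -0.13, SE 0.075, limma adjusted p = 0.433). Of the genes for subunits IV, Va and Vb, Cox4i1 had 4359.6 ± 879 against 4780.1 ± 1200.2 normalized counts (log2 fold change 0.12, SE 0.14, limma adjusted p = 0.76), Cox5a 4136 ± 596 against 3748 ± 221 normalized counts (log2 fold change -0.13, SE 0.10, limma adjusted p = 0.577) and Cox5b 2801 ± 280.5 against 2597 ± 112 normalized counts (log2 fold change -0.10, SE 0.081, limma adjusted p = 0.617).

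Cox4i1 illustrates the runs of codes. It had 5783, 4634, 3673, 3800.1 and 3908 in +/+ and 6885, 4579.8, 4325, 3929.8 and 4180.2 in KI/+ mice, so the 3 mice of the earlier run were the highest of all 10. Cox6a1 (5071 ± 417 against 4901 ± 369 normalized counts, log2 fold change -0.048, limma adjusted p = 0.846), Cox6b1 (-0.0061, limma adjusted p = 0.984) and Cox8a (0.039, limma adjusted p = 0.878) had log2 fold changes close to 0. The testis-type Cox6b2 was found at 37.2 ± 10.5 against 41.8 ± 8.88 normalized counts (log2 fold change 0.19, SE 0.21, limma adjusted p = 0.753). Cox7a2l, which encodes an assembly factor for supercomplexes of complexes III and IV, had 1557 ± 107 against 1369 ± 105 normalized counts (log2 fold change -0.19, SE 0.080, limma adjusted p = 0.257). The isoforms Cox4i2, Cox6a2 and Cox8b were not analysed here.

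Cox7c varied most between mice among the nuclear-encoded members whose mean normalized count reached 50. It was singled out after its values were seen. Its values were 3155, 3416, 2512, 4203 and 4219.5 in +/+ and 3705, 4008, 1296, 3060.1 and 2502 in KI/+ mice, a range of 3.26-fold, against a median range of 1.34-fold over 79 such genes. KI/+ replicate 3 stood apart at the low end, and the genotypes overlapped (log2 fold change -0.34, SE 0.23, limma adjusted p = 0.539).

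In complex V, 12 of 17 nuclear-encoded genes lay below 0, with a median of -0.066. Beside Atp5g3, the groups did not overlap for Atp5o and Atp5a1. Atp5o, the stalk subunit also called OSCP, had 5218, 4818, 4619, 4667 and 4647 in +/+ and 4318, 3991, 4336, 3981 and 3699.5 in KI/+ mice. Every KI/+ value was lower, but limma did not call it (log2 fold change -0.24, SE 0.075, limma adjusted p = 0.1), whereas DESeq2 on the recovered reads did (adjusted p = 0.00456). Atp5a1, the alpha subunit of the catalytic head, had 7152 ± 525 against 6207 ± 374 normalized counts (log2 fold change -0.20, SE 0.080, limma adjusted p = 0.206). Atp5b, the catalytic beta subunit, overlapped between genotypes (7121 ± 959.7 against 6482 ± 520.2 normalized counts; log2 fold change -0.13, SE 0.10, limma adjusted p = 0.6). Atp5k, the most abundant gene of the complex and a membrane subunit, had 8842 ± 748 against 8525 ± 957 normalized counts (log2 fold change -0.056, SE 0.092, limma adjusted p = 0.841). Cycs, the carrier between complexes III and IV, had 2879.7 ± 369 against 2956 ± 219.7 normalized counts (log2 fold change 0.044, SE 0.091, limma adjusted p = 0.876).

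Small shifts in one direction were common among the nuclear-encoded members. Without the pseudogene, 56 of 82 lay below 0 (68.3%, median -0.081), against 49.9% of all genes tested (median 0.0005). In the later run of codes, 49 of 82 lay below 0 and the median was -0.026, and with a term for the run it was -0.061. Scaling moved the count the other way, to 66 of 82 (median -0.12) per nuclear-encoded read, where the median of all genes was -0.042, and to 73 of 82 (median -0.15) after quantile normalization. Beside this, the 3 mice of the earlier run had the highest mean deviations from the gene means, at 0.13 and 0.13 in the +/+ mice and 0.068 in the KI/+ mouse (log2), while the other mice lay between -0.10 and 0.032. +/+ replicate 3 and KI/+ replicate 3 were the lowest. The confidence interval of single genes excluded a change over 1.5-fold for 77 of 83 nuclear-encoded members, so a larger change was compatible with the data in the remaining 6, Cox7a1 included.

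**Figure D3:**
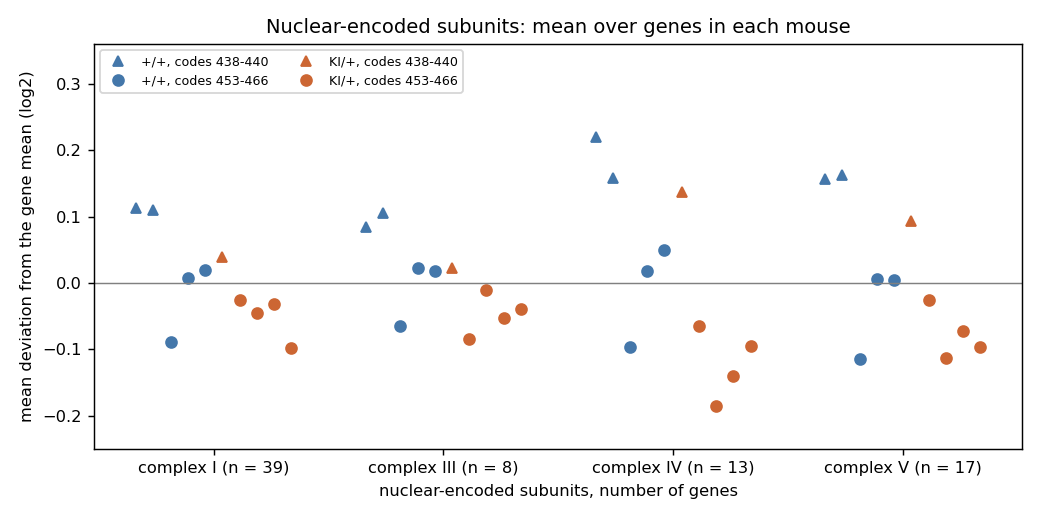
Mean deviation of each mouse from the gene means (log2, y axis) over the nuclear-encoded genes of complexes I, III, IV and V, with +/+ in blue and KI/+ in orange, triangles for the earlier and circles for the later run of library codes. Complex II, with 4 genes, is not drawn. The triangles lie above the circles of the same genotype in each of these complexes.

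As a share of all reads, nuclear-encoded members took 3.36% ± 0.266 (SD, n = 5) in +/+ and 3.20% ± 0.0598 (SD, n = 5) in KI/+ kidneys. In the later run of codes the means were 3.19% and 3.20%. Complex I genes took the most, 1.05% ± 0.0758 against 1.03% ± 0.0224, followed by complex V with 1.02% ± 0.0966 against 0.940% ± 0.0225. Differences in these shares of all reads were within the SD of the +/+ mice, and so were those for complexes III and IV. Complex II was the exception, with 0.143% ± 0.00622 against 0.132% ± 0.0111. Relative to reads on genes not mitochondrially encoded, the differences exceeded the SD of the +/+ mice. Nuclear-encoded members then came to 4.64% ± 0.224 (SD, n = 5) in +/+ and 4.28% ± 0.0627 (SD, n = 5) in KI/+ kidneys, and the ranges overlapped by +/+ replicate 3 alone (4.29%, against 4.19 to 4.36% in KI/+ mice). The later run gave 4.52% and 4.26% on this scale.

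Transcripts of the mitochondrial genome took a far larger share. They made up 25.7, 24.5, 30.1, 28.7 and 29.2% of the reads in +/+ mice and 27.1, 23.9, 24.5, 24.8 and 25.8% in KI/+ mice. The ranges overlapped through the +/+ mice of the earlier run, replicates 1 and 2. In the later run, all 3 +/+ mice (at least 28.7%) were above all 4 KI/+ mice (at most 25.8%), a difference in means of -4.59 percentage points. In the earlier run the KI/+ mouse lay above both +/+ mice, so the direction was not shared between runs. No p was computed for a sum over members.

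Most of this difference came from mt-Nd4, which encodes a proton-pumping subunit of complex I and was the most abundant gene. It took 11.7 to 17.3% of reads in +/+ and 11.5 to 14.4% in KI/+ mice. Without it, the mitochondrial share was 12.6% ± 0.412 in +/+ and 12.2% ± 0.886 in KI/+ kidneys (SD, n = 5 each). mt-Nd4 did not pass the test (log2 fold change -0.20, SE 0.19, limma adjusted p = 0.7).

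**Figure D4:**
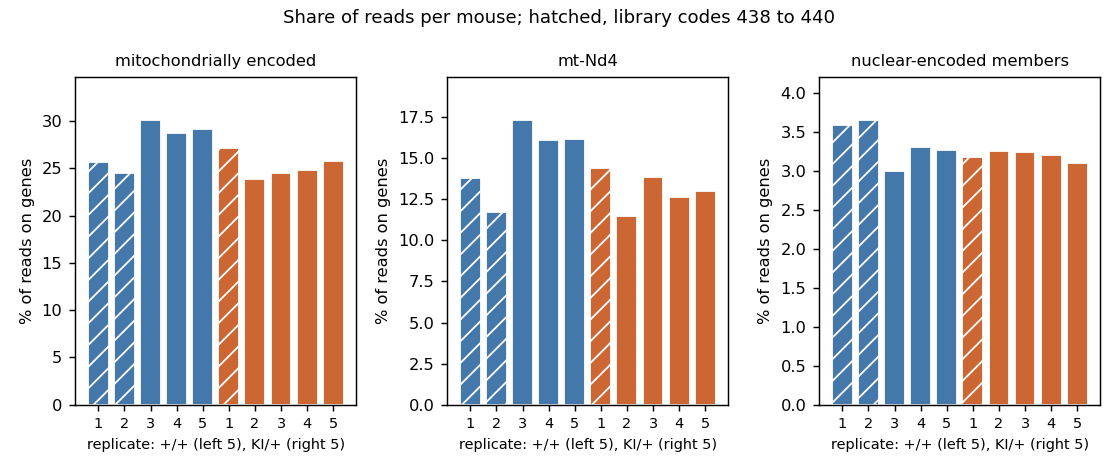
Percentage of reads on genes that fell on all mitochondrially encoded genes, on mt-Nd4 and on nuclear-encoded members, 1 bar per mouse, +/+ in blue and KI/+ in orange, with hatching for the earlier run of library codes. The 3 unhatched +/+ bars exceed the 4 unhatched KI/+ bars for mitochondrially encoded genes and for mt-Nd4, and no such step is seen for nuclear-encoded members.

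None of the 26 mitochondrially encoded members tested passed the limma threshold. An unadjusted p under 0.05 was found for 6 (23.1%, against 15.4% of all genes tested), edgeR called none, and DESeq2 called mt-Atp8 and mt-Nd6. Over the 13 mRNAs the median log2 fold change was -0.052, and it was 0.024 in the later run of codes. The interval of 9 of the 13 stayed within 1.5-fold.

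The complex I subunits of the mitochondrial genome, which build its proton-pumping arm, fell on both sides of 0. mt-Nd1 had 241743 ± 10444 against 248741 ± 23744 normalized counts (log2 fold change 0.037, limma adjusted p = 0.933). mt-Nd2 had 102958 ± 8139 against 90809 ± 14554 normalized counts (-0.19, limma adjusted p = 0.521) and mt-Nd5 22841 ± 2677 against 21091 ± 685 normalized counts (-0.11, limma adjusted p = 0.651). mt-Nd3 was at 0.094 on the log2 scale (limma adjusted p = 0.866). mt-Nd4l, which overlaps mt-Nd4 by 7 bases, was counted at only 9.55 ± 4.73 against 10.1 ± 6.66 normalized counts, and its 95% interval of -1.08 to 0.94 leaves its direction undetermined.

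mt-Cytb, the catalytic core of complex III, had 301140.0 ± 27219 against 279740.0 ± 33109.9 normalized counts (log2 fold change -0.11, limma adjusted p = 0.785). Of the catalytic subunits of complex IV, mt-Co1 (-0.052, limma adjusted p = 0.846) and mt-Co2 (-0.017, limma adjusted p = 0.96) differed by less than their errors. mt-Co3 had 46658, 42690.5, 30868, 25781 and 27519.9 in +/+ and 60793, 39640.3, 34341, 33526 and 44954 in KI/+ mice. The mice of the earlier run were the highest of each genotype, and in each run the KI/+ mice lay above the +/+ mice (log2 fold change 0.30, SE 0.18, limma adjusted p = 0.461). With a term for the run its log2 fold change was 0.44 (limma adjusted p = 0.00986).

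The mitochondrial genome encodes 2 subunits of complex V on overlapping reading frames. mt-Atp8 and mt-Atp6 share 43 bases, and reads in the shared stretch cannot be assigned to either. mt-Atp8 had 4374, 4732, 5357, 5136 and 6275 in +/+ and 4088, 4289.9, 3302, 4417 and 4045 in KI/+ mice. KI/+ values were lower except that the highest of them, replicate 4, exceeded the lowest +/+ value (log2 fold change -0.36, SE 0.10, limma adjusted p = 0.0619). In the later run alone the limma threshold was passed (-0.48, adjusted p = 0.0373). mt-Atp6 was not called, with 15079 ± 2763 against 16902 ± 4922 normalized counts (log2 fold change 0.14, SE 0.16, limma adjusted p = 0.766). Whether the counts of these overlapping genes come from separate transcripts was not tested.

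The rRNAs mt-Rnr1 and mt-Rnr2 had log2 fold changes of -0.032 (limma adjusted p = 0.953) and -0.18 (limma adjusted p = 0.7), with wide ranges between mice. mt-Rnr2 ran from 82422 to 181089 in +/+ and from 84812 to 131229 in KI/+ mice. Together they took 2.14% ± 0.574 and 1.92% ± 0.391 of reads (SD, n = 5 each).

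Both strands of mitochondrial DNA are transcribed into long precursors that are cut at the tRNAs. The GENCODE vM21 annotation places 28 genes on the plus and 9 on the minus strand, and the minus strand carries a single mRNA, mt-Nd6. The members on the minus strand are mt-Nd6 and the tRNA genes mt-Ta, mt-Te, mt-Tn, mt-Tp, mt-Tq and mt-Ts1. They were grouped by strand after their values were seen, and the grouping was given no test. The 6 that were tested all had log2 fold changes above 0, from 0.25 to 0.68, with a median of 0.49, and none passed the threshold. On the plus strand 8 of 20 lay above 0, with a median of -0.042. RNA class differs between the strands, since 5 of the 6 tested minus-strand genes are tRNAs, and among tRNAs alone 4 of 6 on the plus strand also lay above 0 (median 0.17). One of these, mt-Tm, the tRNA for methionine, had an unadjusted p under 0.05 (log2 fold change 0.42, SE 0.17, limma adjusted p = 0.219). Whether strand or RNA class goes with the difference was not tested. In the later run of codes the medians were 0.63 on the minus and 0.056 on the plus strand.

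mt-Nd6 encodes a core subunit of complex I. It had 70.3, 64.0, 85.1, 59.0 and 97.2 normalized counts in +/+ and 79.7, 107, 108, 131 and 126 in KI/+ mice. In each run of codes every KI/+ mouse lay above every +/+ mouse, while over both runs KI/+ replicate 1 fell among the +/+ values (log2 fold change 0.55, SE 0.16, limma adjusted p = 0.0763). DESeq2 called it (adjusted p = 0.0397) and edgeR did not (adjusted p = 0.0712). Its mean of 92.7 normalized counts over all mice was low beside a median of 15990.5 over the 13 mitochondrial mRNAs. The source of its reads was not tested.

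Of the minus-strand tRNAs, those with an unadjusted p under 0.05 are printed as annotated on GRCm38, 5′ to 3′, with the anticodon in capitals.
mt-Tp (tRNA for proline): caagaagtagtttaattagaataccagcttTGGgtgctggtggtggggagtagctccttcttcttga
mt-Tn (tRNA for asparagine): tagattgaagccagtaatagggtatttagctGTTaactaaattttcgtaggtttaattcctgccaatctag
mt-Tq (tRNA for glutamine): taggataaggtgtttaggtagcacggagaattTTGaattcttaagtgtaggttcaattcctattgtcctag
mt-Tp had 162, 200.1, 179, 73.96 and 108 in +/+ and 353, 203, 167, 130.5 and 322 in KI/+ mice (log2 fold change 0.68, SE 0.27, limma adjusted p = 0.218). The mean was higher in KI/+ mice, with the highest values in replicates 1 and 5. mt-Tn had 335 ± 118 against 475 ± 161 normalized counts (log2 fold change 0.52, SE 0.23, limma adjusted p = 0.284), and mt-Tq 201 ± 53.4 against 268 ± 32.3 normalized counts (log2 fold change 0.45, SE 0.15, limma adjusted p = 0.141). +/+ replicate 4 had the lowest value of all 10 mice for each of the 3. Without that mouse the median over the 6 minus-strand genes was 0.31. Mature tRNAs carry no poly(A) tail, and the source of these few reads was not tested.

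**Figure D5:**
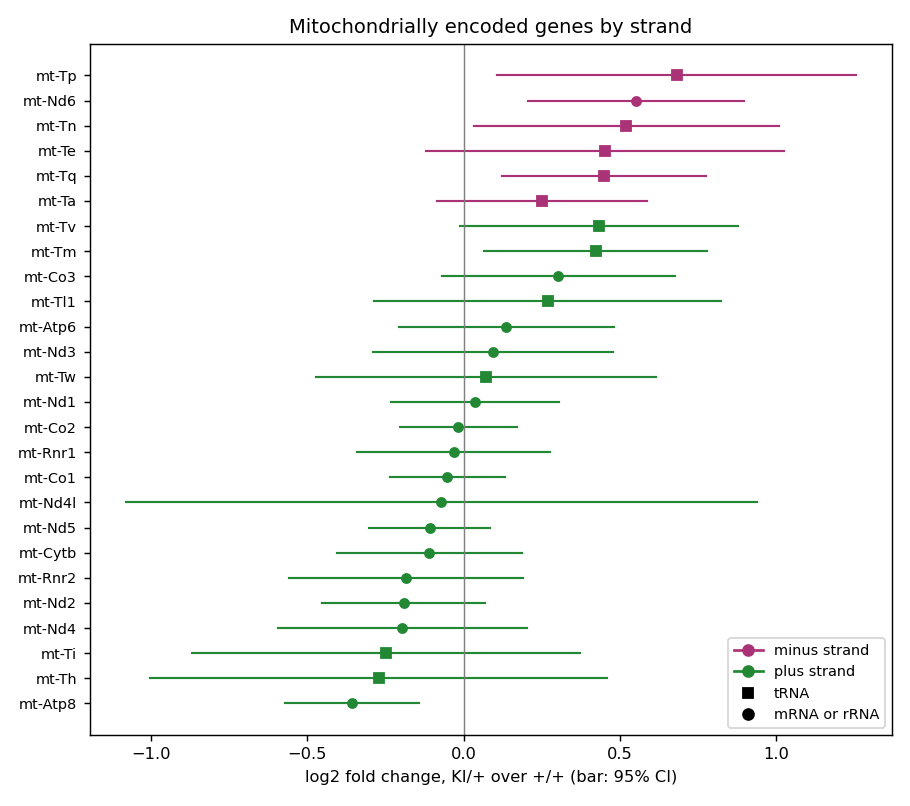
Log2 fold change of KI/+ over +/+ with its 95% confidence interval (x axis) for the 26 tested mitochondrially encoded genes, with minus-strand genes in purple, plus-strand genes in green, squares for tRNAs and circles for mRNAs and rRNAs. All 6 minus-strand genes lie above 0, and 4 of their intervals exclude 0 before adjustment.

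Genes that act around the respiratory chain were read from lists by function. Among 17 assembly factors of complex I, none passed the limma test (1 with an unadjusted p under 0.05, none called by edgeR or DESeq2). Of 37 tested assembly factors of complexes II to V, Fmc1, which helps to build ATP synthase, was lower (1233 ± 57.1 to 975 ± 140.3 normalized counts, log2 fold change -0.35, SE 0.095, limma adjusted p = 0.0477). DESeq2 called it, edgeR did not, and it was not called in the later run (log2 fold change -0.32, limma adjusted p = 0.123) or in 8 of the 10 fits that left out 1 mouse (limma adjusted p = 0.0159 to 0.135 over these fits). None of 28 genes for mitochondrial DNA copying, transcription and RNA handling passed the limma test (1 with an unadjusted p under 0.05), nor did any of 13 genes of ubiquinone synthesis (0 with an unadjusted p under 0.05). edgeR and DESeq2 called none of either list.

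Of 77 mitochondrial ribosomal proteins, 51 lay above 0 with a median of 0.049, and none passed the limma test. An unadjusted p under 0.05 was found for 5 of them (6.49%, against 15.4% of all genes tested), edgeR called none and DESeq2 called Mrps34 higher. In the later run limma called Mrpl4 higher (log2 fold change 0.45, adjusted p = 0.0288), against 0.22 over all mice (limma adjusted p = 0.504). Both genes were named after their values were seen. This list, unlike the nuclear-encoded members, thus had more genes above than below 0.

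Among carriers and porins, 1 of 10 was called. Slc25a4, the heart and muscle form of the ADP/ATP carrier that exports the ATP made by complex V, fell from 2001 ± 60.4 to 1431 ± 66.4 normalized counts with no overlap between genotypes (log2 fold change -0.48, SE 0.070, limma adjusted p = 0.000389). Of 17 regulators of mitochondrial biogenesis, 3 were lower and none was higher. Ppargc1a, the coactivator PGC-1 alpha, fell from 629 ± 90.6 to 346 ± 20.9 (log2 fold change -0.85, SE 0.10, limma adjusted p = 4.64e-05). Perm1, a muscle regulator induced by PGC-1 and estrogen-related receptors, fell from 52.1 ± 10.1 to 9.68 ± 5.32 (log2 fold change -2.51, SE 0.37, limma adjusted p = 0.000411), and Esrrb, an estrogen-related receptor, from 101 ± 10.5 to 54.9 ± 19.7 (log2 fold change -0.97, SE 0.24, limma adjusted p = 0.029). The later run alone called 2 of the 3, without Esrrb (log2 fold change -1.02, limma adjusted p = 0.118). Its call was also lost without +/+ replicate 1, 3 or 4 (limma adjusted p up to 0.0778). Of the 17 regulators, 13 lay below 0 and 4 above. Uncalled ones included Nrf1 (log2 fold change -0.11, limma adjusted p = 0.739), Esrra (0.0088, limma adjusted p = 0.989), Esrrg (-0.29, limma adjusted p = 0.174) and Pprc1 (0.81, limma adjusted p = 0.146). Tfam, which acts on mitochondrial DNA, was not called either (log2 fold change -0.13, limma adjusted p = 0.746).

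Of 9 other enzymes that feed electrons to ubiquinone, both proline-type dehydrogenases were lower. Prodh, which oxidizes proline, fell from 617 ± 87.4 to 423 ± 18.8 (log2 fold change -0.53, SE 0.10, limma adjusted p = 0.0037), and Prodh2, which oxidizes hydroxyproline, from 356 ± 28.4 to 264 ± 25.8 (log2 fold change -0.43, SE 0.10, limma adjusted p = 0.0156). Prodh was called in the later run and Prodh2 was not (log2 fold change -0.45, limma adjusted p = 0.0663), and the Prodh2 call was lost without +/+ replicate 4 (limma adjusted p = 0.0596).

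Markers of tubule segments moved in the same kidneys. Of 4 markers of the distal convoluted tubule, 3 were lower in KI/+ mice and none was higher, and their summed level was 4154 to 4813 in +/+ and 2424 to 3280 normalized counts in KI/+ mice. Slc12a3, the sodium chloride cotransporter of that segment, fell from 2698 ± 234 to 1179 ± 140.4 (log2 fold change -1.20, SE 0.094, limma adjusted p = 2.61e-07). In the thick ascending limb, 1 of 4 markers was lower (Umod, log2 fold change -0.999, SE 0.14, limma adjusted p = 0.000198). Another 1 was higher (Cldn16, log2 fold change 0.82, SE 0.15, limma adjusted p = 0.0028). Slc12a1 (log2 fold change -0.22, limma adjusted p = 0.438) and Cldn19 (log2 fold change 0.24, limma adjusted p = 0.533) were not called. Sums over the 4 were 26403 to 35257 in +/+ and 11916 to 19990 in KI/+ mice. Umod made up most of them, at 22917 ± 3438 in +/+ and 11569 ± 2213.5 normalized counts in KI/+ mice, so their fall was mainly that of Umod. Of 10 proximal tubule markers 3 were lower and 1 was higher, with overlapping sums of 90230 to 97188 and 89738 to 110501. Of 6 intercalated cell markers 2 were lower, with sums of 1446 to 1486 and 1136 to 1353, where the call for Atp6v0d2 was lost in 4 of the 10 fits that left out 1 mouse. Of 5 principal cell markers limma called 1 higher, Hsd11b2 (log2 fold change 0.43, limma adjusted p = 0.0478), which was lost in 6 of those 10 fits. edgeR called none of the 5 and DESeq2 called 4, all 5 lay above 0, and 4 had an unadjusted p under 0.05. Their sums were 1635 to 1943 and 2028 to 3389. In whole tissue, fewer cells of a type and less RNA per cell cannot be told apart, and the part of these markers in the lower members was not tested.

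Smooth muscle markers lay above 0 for 3 of 3 genes, with none called and 2 with an unadjusted p under 0.05. Their sums were 226 to 286 in +/+ and 285 to 558 in KI/+ mice. No marker was called among 4 of podocytes (sums 737 to 921 and 695 to 890.1), 5 of endothelium (2275 to 2471 and 1904 to 2525), 6 of leukocytes (2121 to 3200.5 and 2477 to 3649.9) and 4 of fibroblasts and mural cells (829 to 1063 and 741 to 2004). All 6 leukocyte markers lay above 0 (median 0.28, 2 with an unadjusted p under 0.05). All 5 endothelial markers lay below 0 (median -0.098, 1 with an unadjusted p under 0.05). The podocyte list and the fibroblast and mural list each had 2 above and 2 below 0. No marker in these lists was at 0, and the fat markers Ucp1, Adipoq, Plin1 and Cidea were not analysed here.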

How the data were processed

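RNA from whole kidneys of 3-month-old mice was analysed, with 1 library per mouse and the genotype taken from the labels. The authors made QuantSeq 3′ libraries, aligned reads to GRCm39 with TopHat2 2.0.10, allowing multiple hits, and counted them by strand with HTSeq 0.6.1 on a GENCODE annotation. The deposited values are a signal per gene, obtained by the authors by dividing reads per gene by a library's size factor. In every library 100% of values came out as whole reads after undoing this division (tolerance 0.01 reads). Genes with near-identical copies, among them many subunit genes with pseudogenes and mitochondrial genes with nuclear copies, are uncertain. The lowest gene mean was 5.64, so scarcer genes were not analysed here.

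After adding a pseudocount of 1 and taking log2, limma 3.58.1 (R 4.3.3, eBayes with trend, two-sided) was fitted to the 13197 genes that reached 10 normalized counts in 5 or more mice. Benjamini-Hochberg adjustment covered all of these genes. The pseudocount understates changes of scarce genes. Because labels do not state how the mice were bred, p-values measure the spread between these mice. Alternatives were other pseudocounts (0.5 and 5), filters and scalings, limma without trend or with robust variances, edgeR 4.0.16 and DESeq2 1.42.0 on recovered reads, a term for the run of library codes, the later run alone, and leaving out each mouse. The limma step was tested on simulated data.

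Members and lists were chosen with earlier results of these data known. Named genes are those past the threshold, mitochondrial mRNAs and rRNAs, the most abundant gene and that with the smallest p in each complex, the isoforms, Sdha to Sdhd and Cycs, and called genes of the lists. Further genes are named where their groups did not overlap or where the text says that they were chosen after their values were seen. The tRNAs, Ndufs8, the uncalled regulators and the uncalled markers of the thick ascending limb were also chosen after their values were seen. Some genes are named for a promoter motif. Promoters come from RefSeq (GRCm38.p6) and tRNAs from GENCODE vM21 (GRCm38). Both use an older build than the counts, and coordinates were not converted.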

Additional observations from a re-analysis of the deposited data

Results flagged for a closer look

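Among 116 groups of 5 values checked with Dixon's test, a single mouse stood far from the other 4 in 5 cases, where chance would flag about 1 in 20 groups. All 5 were KI/+ mice. Replicate 1, from the earlier run of library codes, was high for Cox4i1, with 6885 normalized counts against 3930 to 4580 in the other 4 mice, and for Cox6a1, with 5545 against 4608 to 4828. The +/+ mice of that run were also the highest of their genotype for both genes. Replicate 3 was high for Cox7a2, with 8368 against 6555 to 7001. Replicate 5 was low for Atp5a1, with 5549 against 6260 to 6439, and high for the rRNA mt-Rnr1, with 48293 against 28530 to 33342. None of these genes was called by limma.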

How the results depend on the processing

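Cox7a1 passed the threshold under all 14 alternative settings and without each mouse (log2 fold change -0.98 to -0.73). Atp5g3 passed under 13 of 14 settings and Ndufb5 under 11. The share of genes called among all tested, 3.69% as reported, was 6.30% with a term for the run and 2.21% without trend. The number of members called, 3 as reported, was 6 with DESeq2, 8 with the term for the run, 7 after quantile normalization and 1 without trend. For mitochondrially encoded members, with 0 as reported, it was 2 with DESeq2, 3 with the run term and 1 each in the later run alone, with robust variances and after quantile normalization. For nuclear-encoded members, with 3 as reported, it was 5 with the run term, 6 after quantile normalization and 1 without trend. Complex I, with 1 as reported, had 2 with the run term and 0 in the later run alone, without trend or with values scaled to all reads. Complex III had 1 with the run term against 0 as reported, and complex IV 2 after quantile normalization against 1. Complex V, with 1 as reported, had 2 with DESeq2 or with values scaled to nuclear-encoded reads, 3 after quantile normalization and 0 without trend. The higher members among these calls were Ndufv1, mt-Co3 and mt-Tp with the run term and mt-Nd6 with DESeq2. The cause of these shifts was not tested.

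Leaving out 1 mouse gave 2.24 to 3.53% of all genes called (2.24% without +/+ replicate 5 and 2.35% without +/+ replicate 4), 1 to 3 members, 0 to 1 mitochondrially encoded and 1 to 3 nuclear-encoded members, 0 to 1 in complex I and 0 to 1 in complex V. A single member, Cox7a1, was left without +/+ replicate 4, without +/+ replicate 5 and without KI/+ replicate 5. mt-Atp8 was called without +/+ replicate 1 and mt-Nd6 without KI/+ replicate 1.

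The difference in the mitochondrial share of all reads, -2.43 percentage points (27.7% in +/+ and 25.2% in KI/+), was -4.59 in the later run alone. Relative to reads on other genes the difference was -4.58 (38.4% and 33.8%). That scale has a smaller denominator, so its value cannot be set beside those in shares of all reads. For nuclear-encoded members the difference, -0.164, was -0.364 relative to reads on genes not mitochondrially encoded, where the scale also differs. Medians moved by less than the spread between mice under every alternative run. The 6 minus-strand genes stayed above 0 in each fit that tested them. No paired analysis was possible because replicate numbers follow accession order and name no shared litter or batch. Counts of 2 to 19 reads per library limit the precision for mt-Nd4l, Ndufa4l2, mt-Tg and mt-Ts1. The last 2 were tested by limma only without the filter on low values, where neither was called.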
